A study of Mus musculus with 98 samples.

Results

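Chromosomal ends made in the same DNA ligase IV-deficient cell line by a pair of nucleases, Cas9 and a zinc finger nuclease (ZFN), were compared strand by strand. The members are the 12 sequenced files, of 98 in the series, that the labels assign to line B with a Cas9 and guide RNA break or with a ZFN break. They come from 6 of 49 libraries, 3 for each nuclease, and form 2 of the 17 groups. The Cas9 group is the line B culture labelled CJ 7, cut with Cas9 and a guide named Eb. The ZFN group is labelled ZF 11 in the titles, and its labels give neither a CJ number nor the site that the ZFN cuts. The cells of both groups lack ligase IV and are Abelson-transformed mouse pre-B cells that were held in G1. No ligase IV-proficient and no uncut table at these breaks was analysed here. The Cas9 break in another ligase IV-deficient line, line A (CJ 1), served as the measure of how far lines differ. RAG breaks of lines A and B, at the Jk1 segment of the immunoglobulin kappa locus and at a recombination substrate, gave further gaps between the same lines. Their titles give 48 h, and those of line B also carry the tag shNT, which those of line A lack. The other ZFN group of the series, ZF 12 in line C, comes from cells deficient in both 53BP1 and ligase IV and entered none of the tests. The labels of the Cas9 and ZFN groups give no time after cutting, and how the nucleases were delivered is not given in the sources used here.

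The assay, hairpin capture of DNA end structures, seals the strands of a broken end to each other, so that a single read pair shows where the strand that ends in a 5' terminus stops and where the strand that ends in a 3' terminus stops. Cas9 directed by a guide RNA cuts both strands at nearly the same place and leaves a blunt end or an end with a short 5' overhang. A ZFN is a pair of DNA-binding zinc finger proteins that each carry the FokI nuclease domain, and FokI cuts the strands apart and leaves a 5' overhang. Ligase IV performs the last step of non-homologous end joining, the main repair route in G1, so without it a broken end remains unjoined and exposed to nucleases and polymerases. Removal of the 5'-ending strand is called resection and exposes a 3' overhang.

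Each group has 1 table in which its 3 libraries were pooled, so no value below has a replicate error. A structure pairs a stop position of the 5'-ending strand with an overhang. After structures with 1 read were dropped, 625862 Cas9 reads in 684 structures and 623350 ZFN reads in 1187 structures remained. The line A Cas9 table held 715311 reads in 800 structures. The ZFN table listed 617 structures with 1 read, while the Cas9 tables listed none. Just inside that limit, 307 structures of the ZFN table and 112 of the Cas9 table had 2 reads. Loss is the distance in nt from a reference position that was set from the tables, 37 for Cas9 and 33 for the ZFN. These are the 5'-strand positions of the most abundant blunt end and of the most abundant 4-nt 5' overhang, so the place of those ends at loss 0 is by construction. Exact Clopper-Pearson 95% intervals cover counting error only and stand in parentheses, since PCR reads are not independent molecules.

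Cas9 ends were concentrated on 1 structure and ZFN ends were spread over many. The leading structure took 21.7% of Cas9 reads in line B and 19.5% in line A, against 5.66% of ZFN reads. The 10 leading structures took 47.0% of Cas9 reads and 38.4% of ZFN reads. Weighting structures by their reads gave 17.6 equally abundant structures for Cas9, the inverse of the summed squared shares, and 51.2 for the ZFN. The line A Cas9 table had 19.7, close to the line B value. The evenness did not extend to the tails, where 90% of reads took 175 Cas9 structures and 163 ZFN structures.

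The leading Cas9 end was the blunt end at the reference position, the product of a cut at 1 place in both strands. It accounted for 135850 reads, 21.7% (95% interval 21.6 to 21.8) in line B and 19.5% in line A. The 1-nt 5' overhang at the same 5' terminus, with 1 nt less of the 3'-ending strand, was next at 4.57% in line B and 6.38% in line A. A blunt end 1 nt outside the reference position followed at 4.35% and 4.86%. In line A too these 3 ends were among the 4 most abundant, and 5 of the 10 leading Cas9 structures in line B were blunt or carried the 1-nt 5' overhang at the reference position. Blunt ends also appeared 1 nt inside, at 2.64% in line B and 4.95% in line A, and 2 nt inside, at 2.97% and 3.26%. A 3-nt 5' overhang whose 5'-ending strand reached 2 nt outside the reference position held 3.09% in line B and 3.23% in line A. The remaining 4 leading Cas9 structures were 3' overhangs of 1 to 3 nt. The 2-nt 3' overhang whose 3'-ending strand stopped at the reference position held 2.16% in line B and 0.658% in line A. The 3-nt 3' overhang at loss 4 held 2.04% and 0.853%. Both were more abundant in line B than in line A, whereas the leading blunt end was close in the lines.

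The ZFN table had no single leading end. The structure with the most reads, at 5.66%, was a 2-nt 5' overhang whose 5'-ending strand lay 1 nt outside the reference position. The end that FokI is known to leave, a 4-nt 5' overhang, was the third most abundant at loss 0, with 29134 reads or 4.67% (4.62 to 4.73). The 5'-ending strand at loss 0 was paired more often with a longer 3'-ending strand than with the exact 3' terminus. Reads with this 5' terminus made up 13.3% of the table, of which those with a longer 3'-ending strand held 8.17% of all reads, those with the exact 3' terminus 4.67% and those with a shorter one 0.483%. The most abundant ZFN end, whose 5' terminus lies at position 32, held 35287 of the 35331 reads with that terminus. The 2-nt 5' overhang at position 33 held 4.28% and the 3-nt 5' overhang 3.08%. At the Cas9 break the exact end held most of these reads, which follows in part from the choice of its most abundant end as the reference. Of the 27.2% of Cas9 reads whose 5'-ending strand stopped at the reference position, the exact blunt end held 21.7% of all reads, a shorter 3'-ending strand 5.51% and a longer one 0.0232%. In line A the same 3 values were 19.5%, 9.83% and 0.0249%.

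The other abundant ZFN ends had lost bases from the 5'-ending strand. The 2-nt 5' overhang at loss 4 held 4.92%, the 2-nt 5' overhang at loss 3 held 4.61%, and the 4-nt 5' overhang at loss 4 held 2.76%. Blunt ends were found at loss 3, with 3.91%, and at loss 2, with 2.27%. The 3'-ending strand of the ZFN end stopped 1 to 3 nt outside its own cut position, position 37, in 26.1% of reads. At the Cas9 cut this applied to 4.53% of line B reads and 5.25% of line A reads. Thus 9 of the 10 leading ZFN structures lay within 4 nt of the reference position on the 5'-ending strand and inside it or at it, and the remaining 1 lay outside it.

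Taken strand by strand, the 3'-ending strand showed the wider contrast. It stopped at position 37 in 26.6% of Cas9 reads, at 38 in 15.0% and at 39 in 6.89%, so that 3 positions held 48.5% of reads in line B and 44.7% in line A. For the ZFN the leading positions were 37, 38 and 36, with 12.0%, 11.04% and 9.39%, and together they held 32.4%. The 5'-ending strand of Cas9 ends stopped most often at 37, 39 and 41, with 27.2%, 7.90% and 6.57%, and that of ZFN ends at 33, 37 and 36, with 13.3%, 11.7% and 10.98%. These 3 positions held 41.7% of Cas9 reads, 41.9% in line A for its own leading 3, and 36.0% of ZFN reads.

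**Figure D1:**
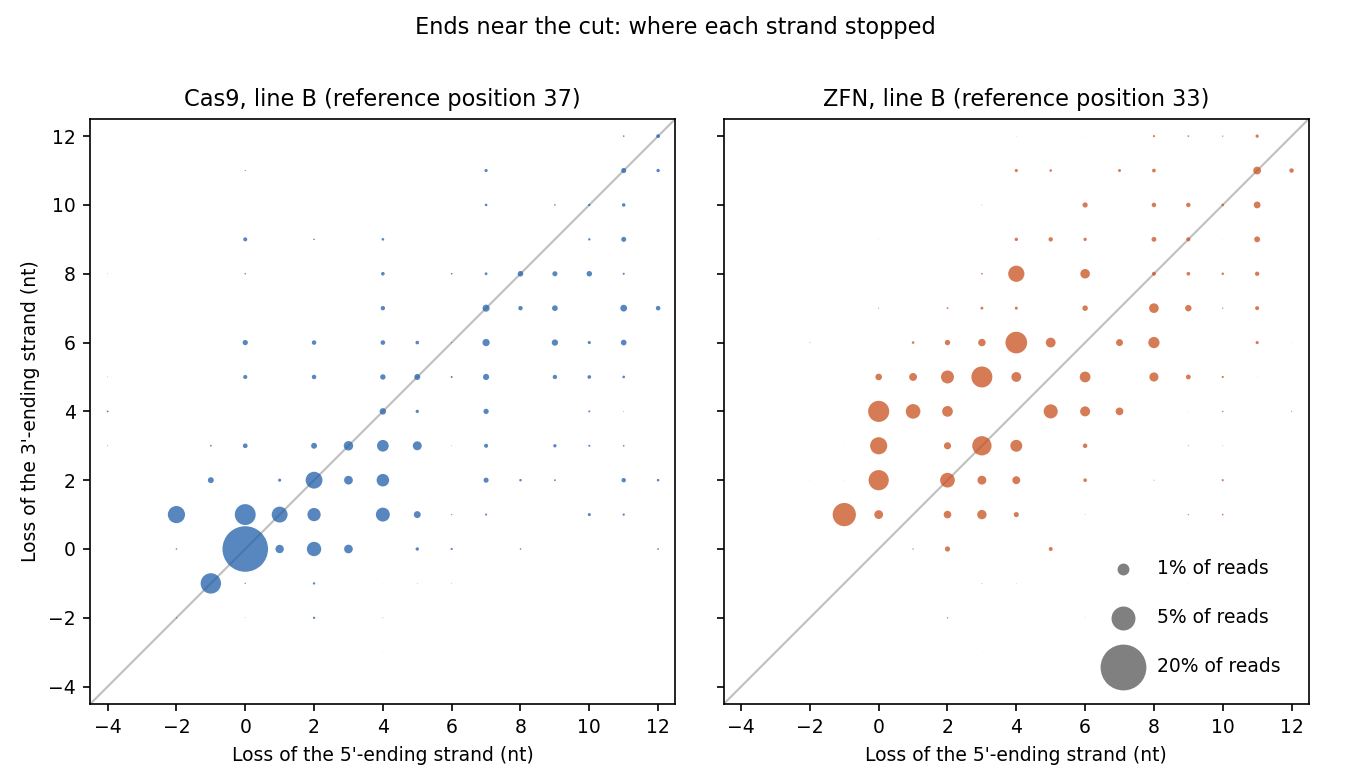
Ends near the cut in the line B tables, with the loss of the 5'-ending strand on the x axis and of the 3'-ending strand on the y axis, both in nt from the reference position of that break. The area of each circle is the share of all reads, and circles above the grey diagonal are 5' overhangs, those on it blunt and those below it 3' overhangs; the Cas9 circle at 0 and 0 stands for 21.7% of reads, while the largest ZFN circle, above the diagonal, stands for 5.66%.

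Overhang polarity near the cut, as listed, separated the nucleases. Some abundant Cas9 blunt ends and ZFN 5' overhangs have the same summed length of both strands and were listed for Cas9 or the ZFN, not for both. Whether such ends were assigned alike at both breaks was not tested. This limits the gaps here and those given below by length, over all ends and among resected ends. Ends near the cut are those whose 5'-ending strand lay less than 10 nt from the reference position, 62.5% of Cas9 reads and 66.2% of ZFN reads. Among them, 5' overhangs made up 18.4% for Cas9 and 67.3% for the ZFN, a gap of 48.9 points. Between lines A and B the Cas9 value moved by 11.5 points, to 29.9% in line A, so the nucleases lay farther apart than the lines. Blunt ends near the cut made up 54.9% for Cas9 in line B, 55.9% in line A and 9.84% for the ZFN. That gap of 45.1 points compares with 1.03 points between the Cas9 lines. For 3' overhangs near the cut the values were 26.7% for Cas9 in line B, 14.2% in line A and 22.9% for the ZFN. The ZFN lay between the Cas9 lines here, and they differed from each other by 12.6 points, more than the 3.86 points between the nucleases in line B.

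Lengths showed which 5' overhangs made the gap. Overhangs of 2 nt held 33.0% of ZFN reads near the cut and 0.445% of Cas9 reads, 0.805% in line A. The 4-nt 5' overhang held 13.8% against 0.831%, and 2.08% in line A. The 3-nt 5' overhang was closer, with 12.2% for the ZFN, 6.68% for Cas9 in line B and 9.23% in line A. For 1-nt 5' overhangs the order was reversed, with 6.23% for the ZFN, 8.94% for Cas9 in line B and 12.5% in line A. The 5' overhangs of the Cas9 break were therefore mostly of 1 or 3 nt and those of the ZFN break mostly of 2 to 4 nt.

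**Figure D2:**
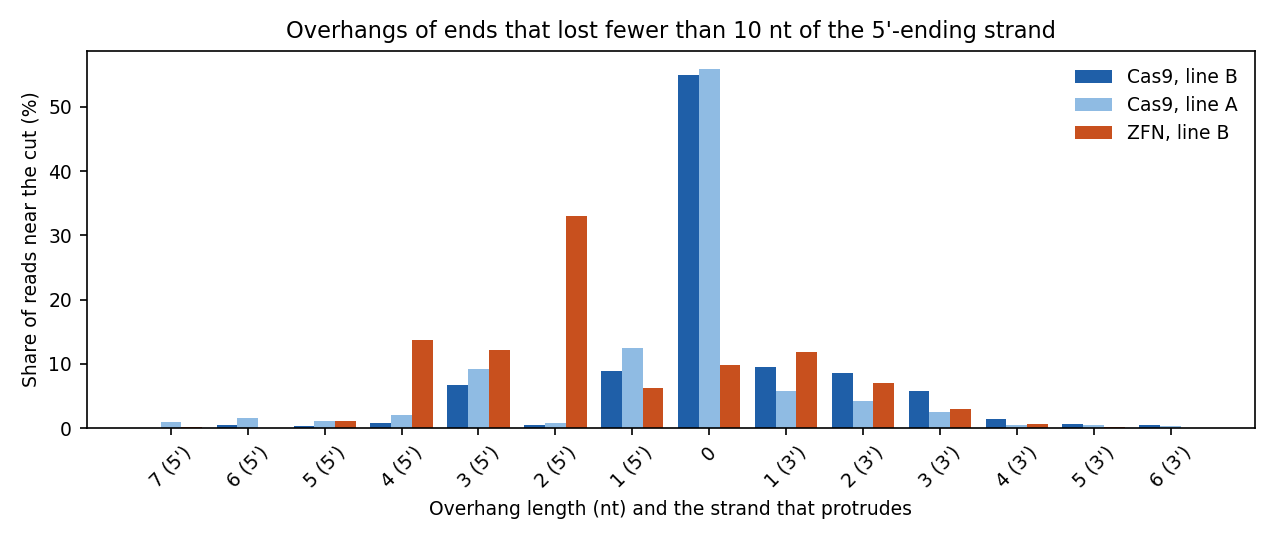
Share of reads near the cut, in percent on the y axis, by overhang length in nt and protruding strand on the x axis, for Cas9 in line B, Cas9 in line A and the ZFN in line B. The tallest Cas9 bars are at length 0, with 54.9% and 55.9%, and the tallest ZFN bar is the 2-nt 5' overhang, with 33.0%.

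Over all ends the same polarity gap remained. All 5' overhangs took 17.5% of Cas9 reads (17.4 to 17.6) and 51.2% of ZFN reads (51.0 to 51.3), and blunt ends took 40.0% (39.9 to 40.1) and 9.47% (9.40 to 9.55). In two-sided Fisher's exact tests p fell below what double precision can hold for both differences, but such tests compare these pools of reads, not the nucleases. The gaps of 33.6 and 30.5 points can be set against gaps between lines A and B. For 5' overhangs these were 10.4 points at the Cas9 break, 5.60 at RAG breaks of the Jk1 segment and 7.78 at RAG breaks of a recombination substrate. For blunt ends they were 0.695, 5.79 and 0.420 points. Both differences between the nucleases thus exceeded each of the 3 line gaps available. All 3' overhangs took 42.5% of Cas9 reads and 39.4% of ZFN reads (two-sided Fisher's exact test, p = 5.08e-274), a gap of 3.11 points. It was smaller than the 11.1 points between the Cas9 lines, and line A, at 31.4%, lay on the other side of the ZFN value.

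The tables were assumed to count positions in the same way, which the sources used here do not state. On that assumption the ends were compared without any reference position. The 5'-strand positions ran from 2 to 218 in the Cas9 tables of both lines and in the ZFN table, whereas in line B the highest position was 173 at Jk1 and 209 at the substrate. Counted so, the 3'-ending strand of the leading Cas9 end and that of the exact FokI end both stopped at position 37, and their 5'-ending strands stopped 4 nt apart. The labels do not say whether the nucleases cut the same stretch of chromosome. Nuclease, cut position, library preparation and, by the list of read files, sequencing run (set 9 for Cas9, set 8 for the ZFN) cannot be told apart for any difference given here. The labels themselves give set 8 for both.

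At the cut, each table listed 0 reads for ends that were abundant in the other. The blunt end at position 37, with 135850 reads for Cas9, was listed with 0 reads for the ZFN, which allows a share of up to 0.000481% there by the limit of 3 counts over the table's reads. Blunt ends at positions 38, 39 and 40, with 16546, 18591 and 5882 Cas9 reads, also had 0 ZFN reads. Yet the ZFN table held 11.7% of its reads with a 5'-ending strand at position 37 and 12.0% with a 3'-ending strand there, in other combinations. In the opposite direction, the 2-nt 5' overhangs with the 5' terminus at positions 32, 33, 36 and 37 had 35287, 26677, 28726 and 30638 ZFN reads and were not among the listed Cas9 structures of either line. Some of these zeros are paired. The blunt ends at positions 37, 38 and 40 have the same summed strand length as the 2-nt 5' overhangs at 36, 37 and 39. The last of these overhangs had 5969 ZFN reads and 0 Cas9 reads. The blunt end at position 39 has the same summed length as the 4-nt 5' overhang at 37. That overhang had 17196 ZFN reads and 0 Cas9 reads in either line. In line C, whose cells also lack 53BP1, the ZFN break likewise had 0 listed reads for the blunt ends at positions 37, 38, 39 and 40. Blunt ends at positions 45 and 49 had 0 ZFN reads in lines B and C too. Cas9 had 2047 and 940 reads there in line B and 1911 and 387 in line A. These blunt zeros thus recurred in the ZFN tables and were in neither Cas9 table. Whether paired ends were assigned alike at both breaks was not tested, so the zeros do not show that the ends were absent. Other ends near the cut were common to both line B tables. The blunt end at position 36 held 4.35% of Cas9 reads and 3.91% of ZFN reads. The 3-nt 5' overhang at position 35 held 3.09% and 1.77%, and the 2-nt 3' overhang at position 41 held 1.65% and 1.32%.

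Farther in, the strands stopped at the same positions after either nuclease. Over the 40 positions from 47 to 86, the shares of reads with the 5'-ending strand at each position correlated with Pearson's r = 0.952 and Spearman's rho = 0.843 between Cas9 and the ZFN in line B. Between Cas9 in line B and in line A they gave 0.966 and 0.895. For the 3'-ending strand the values were 0.971 and 0.801 between the nucleases and 0.919 and 0.814 between the Cas9 lines. Neighbouring positions of 1 table are not independent, and all points share the assay, so these coefficients are descriptions. The 5'-strand profile of Cas9 had r = 0.327 with that of Jk1 and 0.211 with that of the substrate in line B. For the 3'-ending strand these values were 0.488 and 0.448. The RAG reference position is 2, so this stretch lies farther from the RAG breaks than from the Cas9 cut. These values therefore do not measure what unlike breaks give at equal distance.

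By Pearson's r the likeness was closest at 1 alignment, and by rank this was less marked. When the ZFN positions were moved by 1 to 10 nt in either direction, r for the 5'-ending strand fell to between 0.255 and 0.680 over the 20 moves. For the 3'-ending strand r fell to between 0.448 and 0.787. Spearman's rho fell less, to between 0.499 and 0.754 for the 5'-ending strand and between 0.433 and 0.724 for the 3'-ending strand. Measured from each break's own reference position, a move of 4 nt, r was 0.532 and rho 0.713 for the 5'-ending strand. The most used 5'-strand position of this stretch was 52 in each table, with 3.63% of Cas9 reads in line B, 2.33% in line A and 3.25% of ZFN reads. Position 50 held 2.12%, 1.29% and 2.38%, and position 48 held 2.07%, 1.46% and 1.59%. Between them, position 49 held 0.592% for Cas9 and 0.414% for the ZFN, so a peak and the dip beside it recurred in both tables. The 3'-ending strand stopped at position 52 in 2.67% of Cas9 reads and 2.64% of ZFN reads.

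**Figure D3:**
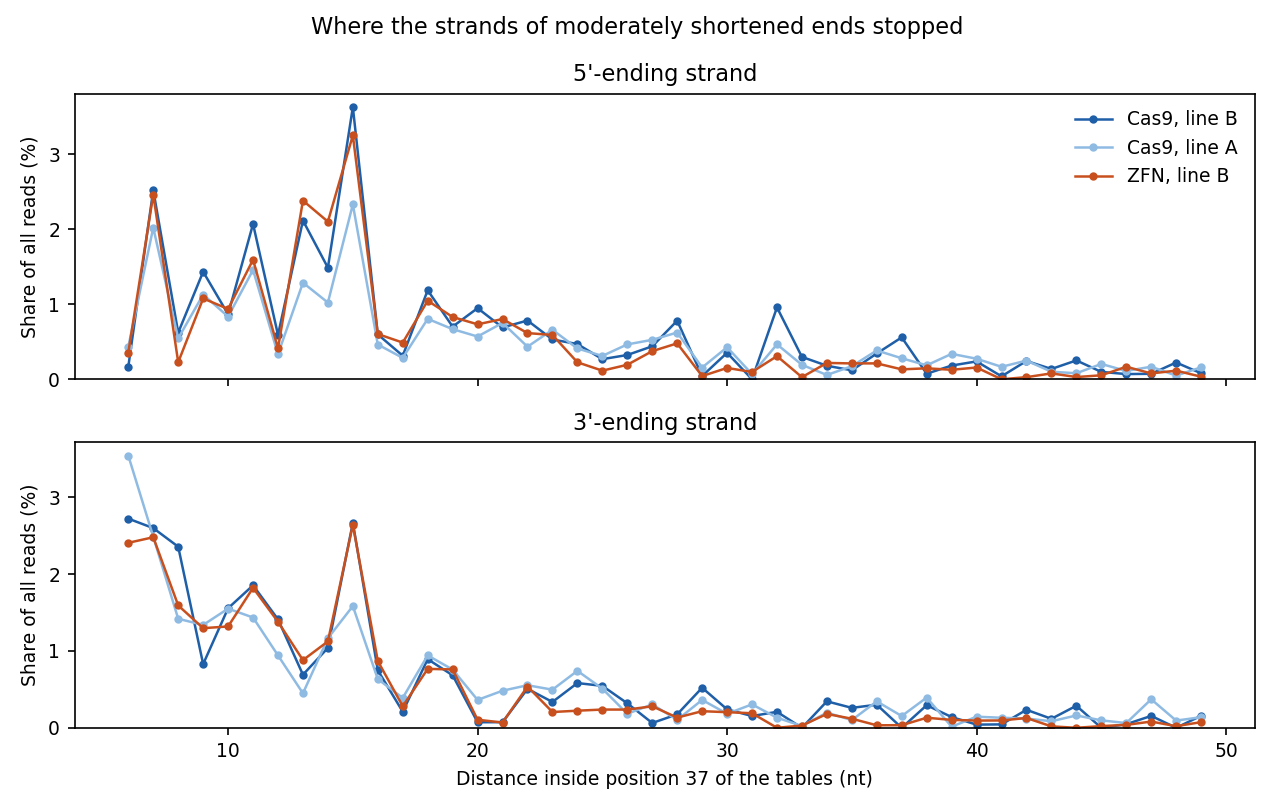
Share of all reads, in percent on the y axis, whose 5'-ending strand (upper panel) or 3'-ending strand (lower panel) stopped at each distance in nt inside position 37 of the tables, for Cas9 in line B, Cas9 in line A and the ZFN in line B. The lines share their peaks, such as the one at 15 nt (position 52), where the 5'-ending strand stopped in 3.63%, 2.33% and 3.25% of reads.

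Whole structures were shared there too. Of the structures with a 5' terminus at positions 47 to 86, 190 were in both line B tables, 62.5% of the 304 Cas9 structures and 59.7% of the 318 ZFN structures. They held 82.6% of the Cas9 reads and 85.2% of the ZFN reads in this stretch. Between the Cas9 lines 216 structures were shared, 71.1% of those in line B and 70.4% of the 307 in line A. The abundances of single shared structures differed to varying degrees. The 4-nt 3' overhang at position 48 held 0.484% of Cas9 reads and 0.305% of ZFN reads, and the 5-nt 3' overhang at position 52 held 0.424% and 0.312%. The 4-nt 3' overhang at position 51 was more abundant for the ZFN, with 0.302% and 0.394%. The 5-nt 3' overhang at position 50 held 0.460% of Cas9 reads and 0.371% of ZFN reads, the blunt end at position 52 held 0.435% and 0.516%, and the 3-nt 3' overhang at position 52 held 0.419% and 0.405%. The leading ends of the stretch differed. The 1-nt 3' overhang at position 52 was first for Cas9 (0.645%, ZFN 0.355%). The 2-nt 3' overhang at position 51 was first for the ZFN (0.638%, Cas9 0.311%). By number of structures, sharing was not particular to positions 47 to 86. At positions 32 to 46, 111 structures were in both line B tables, of 129 for Cas9 and 172 for the ZFN. These held a smaller part of the reads there, 53.6% for Cas9 and 44.5% for the ZFN. Over all positions the line B tables shared 375 structures, 54.8% of those for Cas9 and 31.6% of those for the ZFN.

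Ends from 47 to 86 were mostly 3' overhangs after either nuclease. These made up 85.6% of the Cas9 ends there in line B, 69.2% in line A and 79.4% of the ZFN ends, with the ZFN between the Cas9 lines. Blunt ends were 11.4%, 18.3% and 9.91%, and 5' overhangs 2.97%, 12.5% and 10.7%. The predominance of 5' overhangs that set the ZFN apart at the cut was thus not seen among ends shortened by this much. By loss from each break's own reference position, the 3' overhangs of ends that had lost 10 to 49 nt had a median length of 4 nt in each of the 3 tables. Their quartiles were 3 and 7 nt for Cas9 in line B and 2 and 6 nt both for Cas9 in line A and for the ZFN.

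The amount of resection differed less than the polarity and depended on how it was counted. Ends that had lost 10 nt or more of the 5'-ending strand made up 37.4% of Cas9 reads (37.3 to 37.6) and 33.7% of ZFN reads (33.6 to 33.9). The gap was 3.70 points (two-sided Fisher's exact test, p below what double precision can hold). It exceeded the 0.993 points between the Cas9 lines and the 1.82 points between lines at the substrate, but not the 21.97 points between lines at Jk1. Losses of 10 nt or more on both strands were found in 30.1% of Cas9 reads and 30.7% of ZFN reads, so the direction turned under that definition. Here both ZFN strands were counted from position 33, although the 3'-ending strand of its exact end stops at 37. With the same position, 37, as the reference for both, 29.6% of ZFN reads were resected and the gap was 7.82 points. Losses on both strands cannot exceed that 29.6%, so the turn depends on the reference position. The median loss of the 5'-ending strand was 4 nt at both breaks in line B and 2 nt for Cas9 in line A.

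By length from each break's own reference position, the excess at the Cas9 break of line B lay in ends with long losses. By strand it could not be placed, because both ZFN strands were counted from position 33, not the 3'-ending strand from 37. A 5'-ending strand shortened by at least 10 nt beside a 3'-ending strand shortened by less was found in 7.29% of Cas9 reads in line B, 3.25% in line A and 3.03% of ZFN reads. With only the 3'-ending strand of the ZFN counted from 37 instead, its share would be higher, by an amount that was not calculated. The Cas9 lines differed from each other here, so the line B value was not common to both Cas9 tables. Losses of 10 to 49 nt made up 23.4% for Cas9 and 23.9% for the ZFN, within the 4.83 points between the Cas9 lines. Counted from 37 for both, these losses span positions 47 to 86. That stretch held 23.4% of Cas9 reads in line B, 18.5% in line A and 20.2% of ZFN reads. With that reference, part of the line B excess thus lay at 10 to 49 nt, though line A fell below the ZFN. Losses of 50 nt or more made up 14.1% for Cas9 in line B, 17.9% in line A and 9.81% for the ZFN. That gap of 4.26 points was slightly above the 3.83 points between the Cas9 lines and below the 16.6 points between lines at Jk1.

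**Figure D4:**
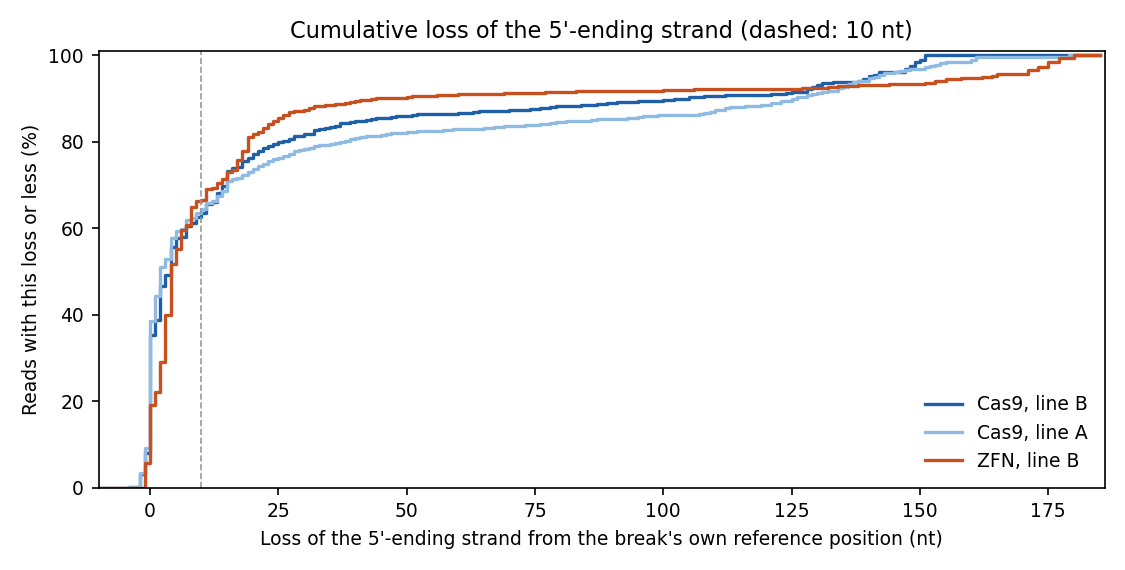
Cumulative share of reads, in percent on the y axis, by loss of the 5'-ending strand in nt from each break's own reference position on the x axis, for Cas9 in line B, Cas9 in line A and the ZFN in line B; the dashed line marks 10 nt. From 17 to 100 nt the ZFN curve runs above both Cas9 curves, and losses of 50 nt or more were left in 9.81% of ZFN reads and in 14.1% and 17.9% of Cas9 reads.

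Blunt ends, as listed, stayed more frequent at the Cas9 break among resected ends. They made up 15.1% of resected Cas9 reads in line B, 14.2% in line A and 8.76% of resected ZFN reads. The gap of 6.34 points exceeded the 0.909 points between the Cas9 lines and every other line gap available. Whether ends were assigned alike at both breaks was not tested here either. The blunt end at position 49 had 940 Cas9 reads in line B, 387 in line A and 0 ZFN reads. Overhangs of 2 nt on the 5' side held 1.04% of resected Cas9 reads in line B, 1.56% in line A and 4.50% of resected ZFN reads. The 5' overhangs made up 16.2% of resected Cas9 reads and 19.5% of resected ZFN reads (two-sided Fisher's exact test, p = 1.47e-189). Line A, at 24.4%, lay on the other side of the ZFN value, and the lines differed by 8.20 points, more than the 3.37 points between the nucleases. The 3' overhangs, the form that resection of the 5'-ending strand gives, made up 68.7%, 61.4% and 71.7% in Cas9 line B, Cas9 line A and ZFN reads.

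In line B the blunt excess among resected ends lay among the long losses, whereas line A also had it at 10 to 49 nt. At 10 to 49 nt of loss, blunt ends were 11.4% for Cas9 in line B, 18.3% in line A and 10.99% for the ZFN. At 50 nt or more they were 21.2% for Cas9 in line B, 9.89% in line A and 3.32% for the ZFN. The 3' overhangs at 50 nt or more were 40.7%, 53.4% and 57.4% in the same order, and the 5' overhangs 38.1%, 36.7% and 39.3%. Among the far 5' overhangs, those of 10 nt or more held 8.16% of far Cas9 reads in line B, 24.5% in line A and 4.14% of far ZFN reads, so the Cas9 lines differed more from each other than line B did from the ZFN.

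**Figure D5:**
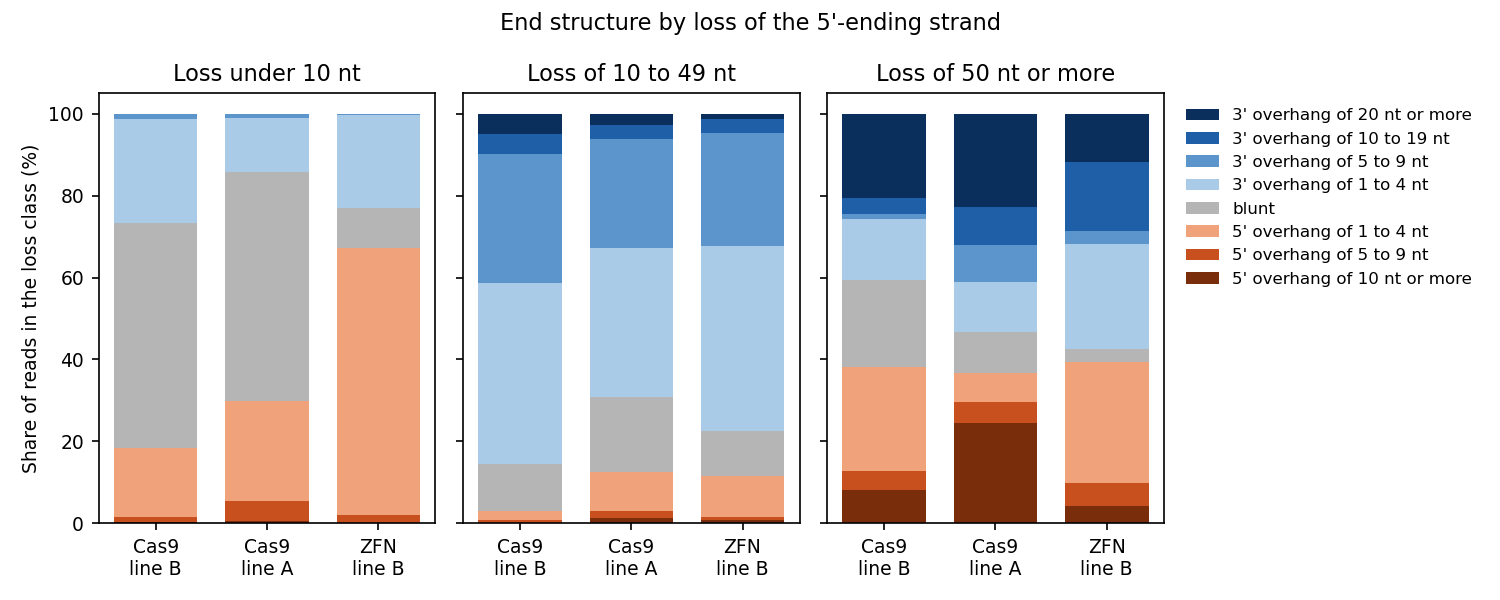
Overhang classes as stacked shares of reads, in percent on the y axis, for ends that lost under 10 nt, 10 to 49 nt and 50 nt or more of the 5'-ending strand, in Cas9 line B, Cas9 line A and ZFN line B. Under 10 nt the ZFN bar is mostly 5' overhang (67.3%) and the Cas9 bars mostly blunt (54.9% and 55.9%), while at 10 to 49 nt all 3 bars are mostly 3' overhang (85.6%, 69.2% and 77.6%).

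Far ends were led by single structures whose abundance differed between tables. The Cas9 end with the most reads beyond 100 nt was a blunt end at loss 148, with 4582 reads or 0.732% in line B and 0 listed reads in line A. The leading long 5' overhang of Cas9, of 33 nt at loss 130, had 2382 reads in line B and 3 in line A. For the ZFN, a 3-nt 5' overhang at loss 175 held 1.12%, and a 19-nt 3' overhang at loss 180 held 0.727%. The 10 leading structures took 46.5% of Cas9 reads in line B and 63.2% of ZFN reads with losses of 100 nt or more, out of 145 and 518 such structures. In line A they took 25.6% of such Cas9 reads, out of 233 structures. The Cas9 lines thus differed more from each other here than the nucleases did in line B.

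The positional likeness did not reach these ends. Over the 82 positions from 137 to 218, Pearson's r for the 5'-ending strand was 0.0764 between the line B tables and 0.204 between the Cas9 lines, and Spearman's rho was 0.0773 and 0.573. Structures in both line B tables held 45.7% of the Cas9 reads and 9.24% of the ZFN reads of this stretch. Structures in both Cas9 tables held 61.7% of the line B reads and 71.0% of the line A reads. At positions 87 to 136 less was shared, with 27.999% of the Cas9 reads and 6.62% of the ZFN reads between the line B tables, and 37.3% of line B reads and 45.8% of line A reads between the Cas9 lines. Pearson's r for the 5'-ending strand over those 50 positions was -0.0269 between the line B tables and 0.190 between the Cas9 lines.

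No other ZFN table of this genotype was at hand, so the spread of the ZFN values between lines was not measured. The ZFN table of line C, whose cells lack both 53BP1 and ligase IV, differs from line B in genotype and line at once. It listed 0 reads for the 4-nt 5' overhang at position 33 that held 4.67% in line B. The 2-nt 5' overhang at position 36 ranked 5 among its ends, with 0.995% of reads against 4.61% in line B. The ZFN reference position thus rests on the line B table alone.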

How the data were processed

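Per the labels' protocols, a ligase specific to single-stranded DNA and bisulfite were applied to genomic DNA before PCR and Illumina MiSeq sequencing. The authors deposited, for each group, raw counts of reads per end structure, pooled over 3 libraries and not normalized. No aligner, read filter or genome build is named in these sources, and no end has genomic coordinates. The depth was 623350 to 715311 reads in the line B tables and the line A Cas9 table, 128122 to 330683 in the 4 RAG tables used for line gaps, 556034 in the line C ZFN table and 307425 in the KpnI table. A KpnI digest, known to leave a 4-nt 3' overhang, carries the value 4 in 99.2% of its reads, which set the sign of the overhangs. The deposited position was taken as the stop of the 5'-ending strand, and the other strand was placed by subtracting the overhang.

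Structures with fewer than 2 reads were dropped. Shares and exact 95% intervals were calculated in Python 3.11.15 with scipy 1.17.1, numpy 2.4.6 and pandas 2.3.3, and drawn in matplotlib 3.10.9. The line B tables were compared over 19 shares by Fisher's exact test, two-sided, on the pooled reads (threshold 0.05, no adjustment). With 1 table a group there is no replicate check, so each gap was set against gaps between lines A and B. The arithmetic was tested on simulated data. The text names the 10 structures with most reads in each table, the ends the nucleases are known to leave, the leading structure of each overhang class and loss class, and the 3 most used positions of each strand. Ends outside that rule, the stretch from position 47 to 86 and the alignment of positions were chosen after values were seen. The members and lists were chosen with earlier results of these data known. Alternatives are given in the closing section.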

Additional observations from a re-analysis of the deposited data

How the results depend on the processing

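Of 83 alternative settings over the 7 shares tested, 78 kept the direction and side of the threshold and 5 turned the direction. The gap in resected ends, Cas9 minus ZFN, was -9.25 points with each structure counted once, -3.96 points at a threshold of 5 nt and -0.561 points when loss of both strands was required. That last setting counted both ZFN strands from position 33, although the 3'-ending strand of its exact end stops at 37. With the line A Cas9 table in place of line B, the gap was -7.96 points for 3' overhangs and 4.82 points for 5' overhangs among resected ends. The gap in 5' overhangs stayed between -36.3 and -12.1 points, that in blunt ends between 3.07 and 31.3, that in 5' overhangs near the cut between -58.4 and -19.6, and that in blunt ends among resected ends between 2.72 and 12.7. The low ends of these ranges came from counting each structure once or leaving out the 10 most abundant. No paired analysis was possible because each table pools its libraries, and for the same reason no library could be left out in turn. Losses beyond position 218 were not measured.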
